A study of Mus musculus with 71 samples.

Results

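The promoters of Zic1, Zic2, Zic4 and Zic5, genes of the Zic family of zinc finger transcription factors, were ends of 46 of the 24244 chromatin loops detected by H3K27ac HiChIP in hSS2 mouse synovial sarcoma (SyS). The family was picked because the summed tag count of Zic2 is among the largest of the list, so that count is a description and carries no test. Loops belong to a gene if either anchor came within 2 kb of a transcription start site (TSS) of the gene in GENCODE. The loop score of a gene is the sum of the paired-end tags of its loops. In HiChIP, fragments that touch in the nucleus are ligated and then pulled down by antibody, here for the histone mark H3K27ac of active promoters and enhancers. The tumors carry the conditional hSS2 allele, which expresses the fusion oncogene SS18::SSX2 once Cre recombinase has acted. Loops came from 2 tumors. The paper describes its ChIP-seq and HiChIP tumors as started by TATCre, a cell-permeable Cre protein, injected into the hindlimb at day 8 of life. It does not name the Cre of each HiChIP tumor. The loops of both tumors were merged by the authors into 1 list, with no control tissue beside it, so no value below has a spread between tumors. All intervals given cover counting error alone. The cells of a tumor were measured together, so more cells with a contact cannot be told apart from more contact per cell. The list holds no expression values, so the tissue label could not be checked against marker genes.

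Zic proteins bind DNA through zinc fingers closely related to those of the GLI factors, the transcriptional effectors of Hedgehog signaling. They are known from the dorsal neural tube, the neural crest and the patterning of the forebrain, and loss of ZIC2 function causes holoprosencephaly. In mammals Zic1 and Zic4 lie beside each other in opposite orientation, as do Zic2 and Zic5. An H3K27ac loop at such a promoter is a contact pulled down with the mark, and does not by itself show transcription or regulation.

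Positions in the list run through the genome in order and then start again, which divides it into 2 parts. The first held 13683 loops with 28657 tags, the second 10561 loops with 12917 tags. Neither part is assigned to a tumor here, and values are given for both. In the list as a whole 78.0% of loops had a single tag. Short loops had more tags than long ones. The median was 13 tags for spans of 5 to 10 kb in the first part and 1 tag for spans of 200 to 500 kb, against 5 and 1 in the second. The list holds called loops alone, so a contact without a listed loop can still have had tags. For spans of 5 to 10 kb the 5th percentile of listed loops was 9 tags in the first part and 4 in the second. For spans of 50 to 100 kb it was 6.9 and 2.

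The 46 Zic loops held 224 tags (Poisson 95% interval 195.6 to 255.3), which is 0.190% of all loops and 0.539% of all tags. Single-tag loops were 23 of the 46, or 50% (Wilson 95% interval 36.1% to 63.9%). The 16 loops with at least 4 tags held 185 of the tags. An FDR under 0.001 was assigned to 12 of the 46 (26.1%, interval 15.6% to 40.3%), against 8.06% of all loops. Zic1 and Zic4 had 0 of them. As the family was chosen on the tags of Zic2, nothing is read from these shares. The tags were divided very unequally among the genes. Zic2 and Zic5 on chromosome 14 had 220 of them in 42 loops, and Zic1 and Zic4 on chromosome 9 had 4 in 4 loops.

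All 4 genes had a loop, as did 45.8% of the 21951 protein-coding genes. A loop score of at least 50 was reached by 2 of the 4, beside 1.02% of protein-coding genes. As the members were chosen on the tags of Zic2, nothing is read from either count.

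**Figure D1:**
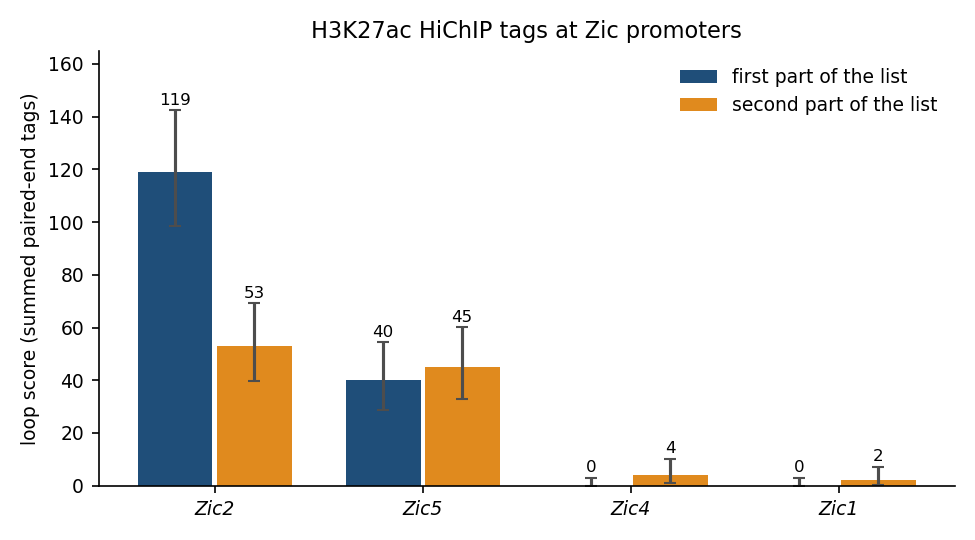
Loop score of the 4 Zic genes, in paired-end tags, for the first (blue) and second (orange) part of the merged list. Values stand above the bars. Error bars are exact Poisson 95% intervals, or reach a set bound of 3 tags for a count of 0. Zic2 has the tallest bar in both parts, with 53 tags in the second, Zic5 has 40 and 45, and Zic4 and Zic1 have 4 and 2 in the second alone.

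Zic2 (ENSMUSG00000061524.8) lies at chr14:122475435-122479852 on the plus strand of mm10. Its 26 loops held 172 tags (interval 147 to 200). The first part of the list gave 69.2% of them in 8 loops (interval 98.6 to 142 tags) and the second the other 53 tags (39.7 to 69.3) in 18 loops. The second part thus held 30.8% of its tags (24.4% to 38.1%), and 31.1% of all tags in the list. Scaled to the depth of the whole list, the first part gave a loop score of 172.6 and the second 170.6. By loop score Zic2 ranked 7 of 13234 genes with a loop, at the same value as 2610035F20Rik, a noncoding transcript that starts beside Zic2 on the opposite strand. Both genes are reached by the same anchors, so their loops cannot be told apart. Zic2 ranked 16 of 9892 looped genes in the first part and 6 of 10108 in the second.

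The genes next above in loop score were Hes1 at 225 tags, a transcriptional repressor downstream of Notch, and the homeobox genes Hoxc11 at 264, Hoxc9 at 321 and Hoxc10 with 160 tags more than Zic2. Next below came Hoxc12 at 164, then Prmt1, an arginine methyltransferase, and the antisense gene Gm15545 at 163 each, and Akt1s1 and Mir707 at 156 each. These last 5 lie within the counting interval of Zic2 and the 4 above it outside.

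Zic5 (ENSMUSG00000041703.7), at chr14:122456795-122465677 on the minus strand, had 19 loops with 85 tags (67.9 to 105). The first part gave 40 tags (28.6 to 54.5) in 3 loops and the second 45 tags (32.8 to 60.2) in 16 loops. The second part held 52.9% of its tags (42.4% to 63.2%). The share was higher than that of Zic2. A test of this difference was not made, since tags of the same loop are not independent and some loops count for both genes. The intervals of the shares ignore this. The lowest tag counts of listed short loops also differed between the parts, as given above. Zic5 ranked 68 by loop score, at 338 in the first part and 10 in the second. Scaled in the same way, its loop score was 58.0 in the first part and 145 in the second.

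Zic2 and Zic5 were looped to each other. The loop of 25 tags in the first part, with an FDR of 8.40e-11, spanned 12.2 kb and ranked 10 by tags among the 187 loops of 10 to 20 kb there. In the second part the same promoters were joined by 8 tags (FDR 0.000438), which ranked 7 of 113. Another 4 tags joined the Zic2 anchor to chr14:122467175-122470863, an anchor upstream of the Zic5 start. These 3 loops held 37 tags, or 21.5% of the tags of Zic2 and 43.5% of those of Zic5. They count for both genes, and once in the sum of 220.

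The DNA of the contacts with most bearing on the results is shown next. The first is a region 3′ of Zic2 that holds the strongest loop of the gene, the second is the site inside Clybl with the most tags from both genes, and the third is the sequence just upstream of the Zic5 start, which is the promoter end of its loops. Stretches of 300 bases were taken within the 2 distal anchors. Each was centered on the MboI site closest to the anchor's middle that left no annotated exon and at most 30 bases masked as repeats. In Clybl this site lies well off the middle. Capitals mark GATC, the site at which MboI cut the chromatin before ligation. Sequences are of GRCm38.p6 and run 5′ to 3′. The coordinates are chr14:122483209-122483508 on the plus strand, chr14:122378806-122379105 on the plus strand and chr14:122465678-122465908 on the minus strand.
Zic2 downstream: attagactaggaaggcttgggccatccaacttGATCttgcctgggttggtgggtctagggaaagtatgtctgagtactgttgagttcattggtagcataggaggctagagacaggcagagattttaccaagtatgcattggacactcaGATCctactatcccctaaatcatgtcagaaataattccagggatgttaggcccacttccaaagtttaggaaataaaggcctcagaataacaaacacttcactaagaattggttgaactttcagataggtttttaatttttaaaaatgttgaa
Clybl intron: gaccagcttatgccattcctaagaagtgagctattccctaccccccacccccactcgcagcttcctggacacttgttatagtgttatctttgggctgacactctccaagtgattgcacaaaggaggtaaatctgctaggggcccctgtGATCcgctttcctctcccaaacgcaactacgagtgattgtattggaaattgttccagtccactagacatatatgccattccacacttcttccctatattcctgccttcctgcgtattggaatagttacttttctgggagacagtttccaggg
Zic5 upstream: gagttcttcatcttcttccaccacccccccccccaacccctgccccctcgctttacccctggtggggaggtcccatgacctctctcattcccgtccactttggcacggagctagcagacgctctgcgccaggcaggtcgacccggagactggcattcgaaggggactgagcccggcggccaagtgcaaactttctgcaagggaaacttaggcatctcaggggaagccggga

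The stretch downstream of Zic2 has 2 MboI sites, a GC content of 40% and 0 CG dinucleotides. The stretch in Clybl has 1 MboI site, 48% GC and 5 CG dinucleotides. The 231 bases upstream of Zic5 have 0 MboI sites, 62.3% GC and 11 CG dinucleotides. The stretches do not stand for their whole anchors. The anchor downstream of Zic2 has 52.0% GC and 26.1 CG per kb in the first part, and 51.6% and 26.1 in the second. The whole anchor in Clybl has 43.0% GC and 14.3 CG per kb, less than the downstream anchor on both measures.

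The strongest loop of Zic2 led to the region downstream of the gene. In the first part 48 tags joined the Zic2 anchor at chr14:122474019-122479319 to chr14:122481317-122485487, with an FDR of 0 as listed and a span of 6.73 kb. In the second part 14 tags joined chr14:122471580-122480264 to chr14:122481317-122485795, with an FDR of 2.15e-09 and a span of 7.63 kb. Among loops of 5 to 10 kb, the first ranked 2 of 152 and the second 1 of 102. The contact made up 62 of the 172 tags of Zic2. The family was chosen on these tags, so nothing is read from these or the other tag ranks of Zic2 loops. No TSS lies within 2 kb of the region and no GENCODE gene overlaps it. Zic5 reached the same region with 6 tags in the second part, at 20.2 kb, and had no listed loop to it in the first.

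**Figure D2:**
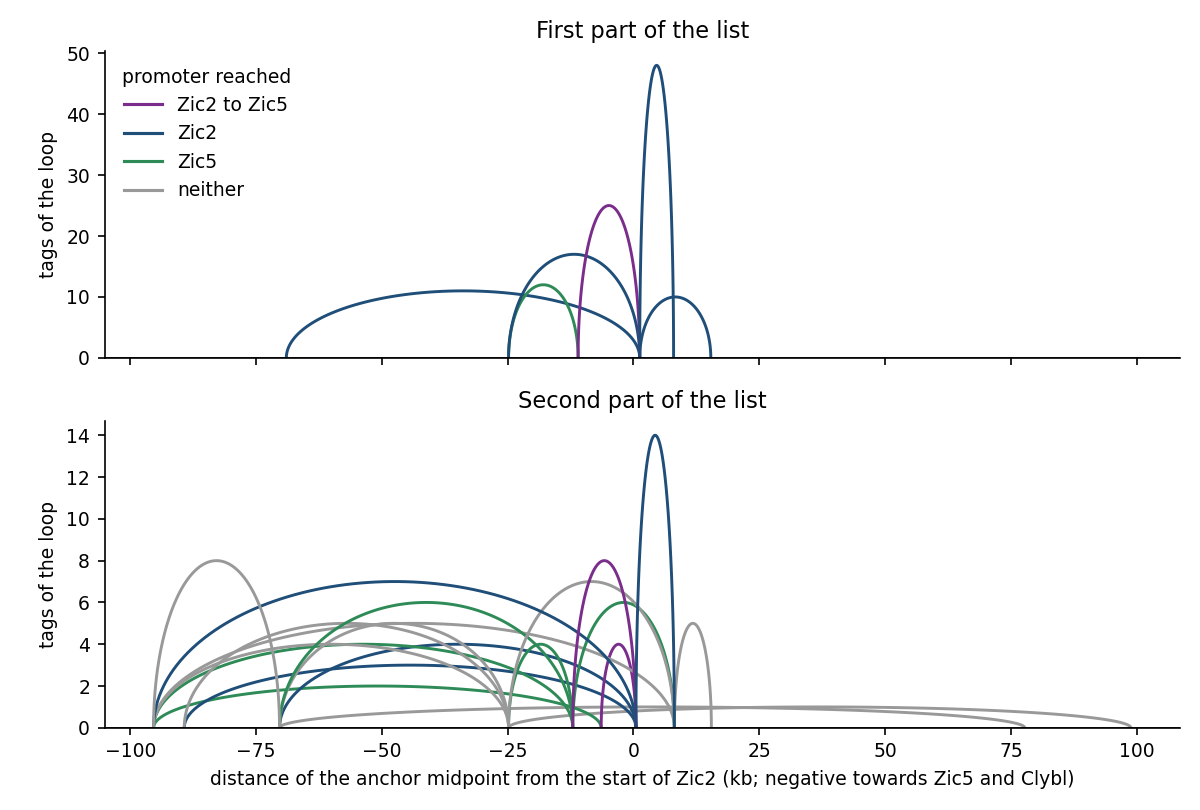
Loops with both anchors within 100 kb of the start of Zic2, as arcs between anchor midpoints whose height is the number of tags, on separate scales for the 2 parts of the list. All 6 loops of the first part end at Zic2 or Zic5, and 9 of the 20 loops of the second part (gray) end at neither.

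Beyond Zic5, towards lower coordinates, lie a pair of partner sites at genes with the symbol Gm5089, which GENCODE gives to a protein-coding gene and to a separate antisense gene. The anchor at the coding gene, chr14:122448905-122452307, was joined to Zic2 by 17 tags in the first part (FDR 2.02e-06, span 26.1 kb). It had no listed loop to Zic2 in the second. It was joined to Zic5 by 12 tags in the first part and 4 in the second. The anchor at the antisense gene lies about 70.3 kb from the Zic2 start. Its loops to Zic2 had 11 tags in the first part and 4 in the second, and its loop to Zic5 had 6 in the second. That loop of Zic5 ranked 3 of the 126 loops of 50 to 100 kb in the second part.

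Farther along, the site inside Clybl, a gene for a mitochondrial citramalyl-CoA lyase, had loops in the second part alone. Zic2 reached it with 7 tags over 95.9 kb (FDR 3.71e-09), which ranked 2 of 126 for that length. Zic5 reached it with 4 tags from its TSS anchor and 2 from the anchor upstream. The site also overlaps the antisense Gm5089 gene and has no TSS within 2 kb. On the other side of Zic2, Gm10837 was joined by 10 tags in the first part (FDR 0.0262, span 14.1 kb). It ranked 121 of 187 for its length, below the median of 12 tags.

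The longest contact with at least 4 tags led to the shared start region of Tm9sf2, a transmembrane protein gene, and the noncoding A330035P11Rik at chr14:122104032-122108563. Zic2 reached it over 370 kb with 5 tags in the first part (FDR 7.42e-09) and 1 in the second. Zic5 reached it with 3 tags in the first part and 2 in the second. At the median for that length, a loop had 1 tag in either part. An anchor at chr14:122873478-122876436 was joined to Zic2 by 2 tags and to Zic5 by 3, all in the second part. It lies inside Pcca, which encodes a subunit of propionyl-CoA carboxylase, and also overlaps Ggact. A TSS of Pcca lies within 2 kb, but the gene itself starts far away, at chr14:122534324 on the plus strand.

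**Figure D3:**
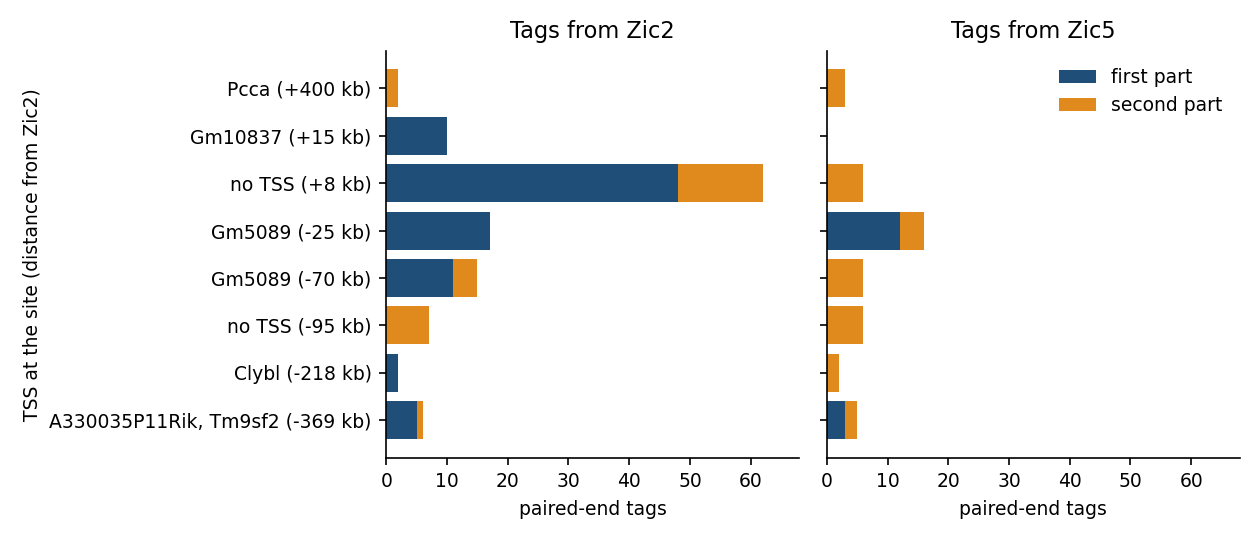
Tags from Zic2 (left) and Zic5 (right) to the partner sites that had at least 4 tags from both genes together, by part of the list, with the distance of each site from the Zic2 start. The site without a TSS at 8 kb has 62 tags from Zic2 and 6 from Zic5, and the Gm5089 site at -25 kb has 17 and 16.

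After merging overlapping distal anchors and leaving out Zic2 and Zic5 themselves, the neighbors had 21 partner sites. Zic2 reached 20 and Zic5 11, with 10 in common, which is 50% of the sites of Zic2 and 90.9% of those of Zic5. The only site of Zic5 alone was 1700108J01Rik, with 1 tag. Of the 183 tags to these sites, 137 went to the 5 sites that had tags of either gene in both parts. Taken alone, Zic2 had tags in both parts at 3 sites and Zic5 at 2. A TSS of another gene lay near 11 of the sites and 10 had none. The promoters of Zic2 and Zic5 lie close together, so a shared partner is described here with no test of whether it is shared more than other neighboring genes share theirs.

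Within 100 kb of the start of Zic2 the list held 26 loops with 226 tags. A Zic2 or Zic5 promoter was an end of 17 of them, with 185 tags or 81.9%. All 6 loops of the first part, with 123 tags, ended at Zic2 or Zic5. The second part had 11 such loops with 62 tags, and 9 loops with 41 tags between other anchors. The strongest of those joined the Clybl site to the antisense Gm5089 gene with 8 tags and the coding Gm5089 gene to the region downstream of Zic2 with 7. Within this block, loops between partner sites were thus listed in the second part alone. Contacts of the first part with too few tags to be listed cannot be seen here. The distance limit of this block was set after the loops were seen.

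Most tags of Zic2 and Zic5 were in short loops. Loops under 20 kb held 109 tags of Zic2 (63.4%) and 53 of Zic5 (62.4%), against 14.8% of all tags in the list. Under 100 kb the tags were 151 (87.8%) and 71 (83.5%), against 28.8%. Short loops had more tags in general and the family was chosen on tags, so nothing is read from these contrasts. The median span over the 46 Zic loops was 216 kb (95% interval 89.8 to 294 kb), with a range from 6.73 to 1644 kb. Every single-tag Zic loop spanned at least 114 kb. For all loops the median was 500.3 kb. Without loops under 20 kb Zic2 kept 63 tags and ranked 72 of 13209 looped genes, and Zic5 kept 32 tags and ranked 427. The direction of the loops was mixed. Zic2 had 97 tags towards lower coordinates, the side of Zic5, and 75 towards higher ones, while Zic5 had 39 and 46.

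**Figure D4:**
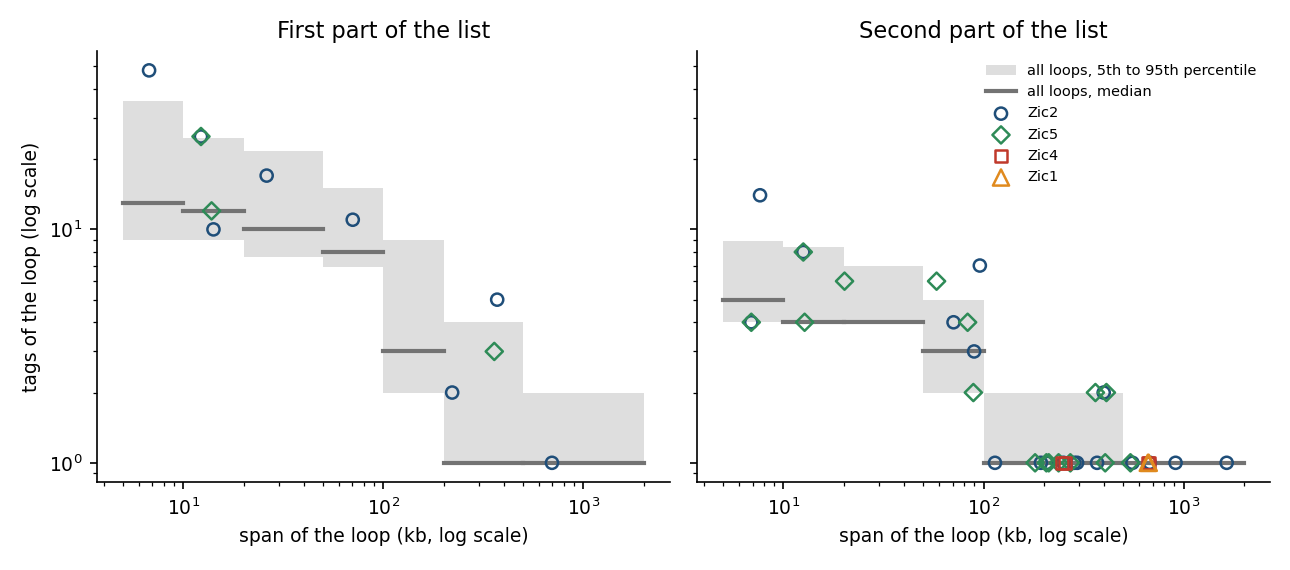
Tags of each Zic loop against its span, both on log scales, for the 2 parts of the list, with the median (line) and the 5th to 95th percentile (shading) of all loops in bins of span. The Zic2 loops of 48 and 14 tags are among those above the shading in their bins, and a loop between Zic2 and Zic5 is drawn with both symbols.

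Of the 32 distinct distal anchors of Zic loops, 18 lay within 2 kb of a TSS of another gene, or 56.2% (39.3% to 71.8%). The 32 include anchors at Zic2 and Zic5, each counted as another gene for its neighbor, and 27 without a Zic promoter. Overlapping anchors with different ends were counted separately. Over all looped promoters the share was 78.7% of 15407 distal anchors. Among Zic loops with at least 2 tags it was 81.2%, so the anchors far from a TSS were mostly those of single-tag loops. Anchors are not replicates, and the difference was not tested.

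Zic4 (ENSMUSG00000036972.14, chr9:91362413-91389348, plus strand) had 4 loops of 1 tag each (interval for the sum 1.09 to 10.2), and ranked 5885. All were in the second part, with FDRs from 0.0118 to 0.0155 and spans from 247 to 670.1 kb. Zic1 (ENSMUSG00000032368.14, chr9:91358058-91365810, minus strand) had 2 loops of 1 tag (0.242 to 7.22) and ranked 8421. Both came from the anchor at chr9:91361462-91365596, which covers a TSS of Zic1 and a TSS of Zic4, and are among the 4 of Zic4. They led over 670.1 and 663 kb to chr9:90692395-90694423 and chr9:90699490-90701575. The other loops of Zic4 started at separate anchors and met at chr9:91121528-91124789. None of these distal anchors was near a TSS. In the first part both genes had 0 tags in listed loops. The bound of 3 tags set for a count of 0 does not cover contacts left out of the list. Within 1 Mb of Zic1 no protein-coding gene other than Zic4 had a loop in the list.

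In order of loop score the genes were Zic2, Zic5, Zic4 and Zic1. Zic2 had 2.02 times the loop score of Zic5, with a ratio of 2.98 in the first part and 1.18 in the second. The counting intervals of the pair overlapped in the second part. The tags of Zic1 are contained in those of Zic4, so the counts of these neighbors in the order are not separate measurements.

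The zinc finger relatives of the family, the 6 Gli and Glis genes, all had loops. Their loop scores ran from 4 to 9 tags with a median of 6.5, and none reached 20. Over all protein-coding genes 45.8% had a loop and 4.81% a score of at least 20. The median was 4 over protein-coding genes with a loop and 0 over all protein-coding genes. Gli1 and Gli2 had 9 and 6 tags, and Gli3 had 7. Of 14 factors of the neural plate border and the dorsal neural tube, tissues in which Zic genes act, 11 had a loop (78.6%, beside the 45.8% above), with a median of 3 over the 14. Scores of at least 20, which 4.81% of protein-coding genes had, were found for 3 of the 14, the homeobox genes Dlx6 (54 tags, 40.6 to 70.5), Dlx5 (40 tags, 28.6 to 54.5) and Msx2 (20 tags, 12.2 to 30.9). Pax7, Tfap2b and Sox10 had 0 tags in listed loops, for which the same bound of 3 was set. A loop that reaches several genes counts for each of them. Both lists were chosen with earlier results of these data known, so nothing is read from their counts.

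The 8 anchors at Zic promoters ran from 1.88 to 8.69 kb in width. Those of Zic2 measured 5.30 kb (first part) and 8.69 kb (second part), against a median of 2.59 kb over 16864 anchors, and the second was wider than 99.9% of them. The part of anchor width in the score of Zic2 was not tested. The number of MboI sites was 7 and 10 in these anchors, against a median of 5, but per kb it was 1.32 and 1.15, at percentiles 29.4 and 21.9 of all anchors. The Zic2 anchor of the first part had 59.6% GC and 69.2 CG dinucleotides per kb, and that of the second 54.2% and 53.5 per kb, at percentiles 95.6 and 85.6 by CG. The Zic5 anchors over the TSS had 61.9% GC and 71.6 CG per kb in the first part and 54.3% and 49.3 in the second. The Zic5 anchor upstream of the TSS had 42.7% GC and 17.6 CG per kb. Among the distal anchors, the 27 without a Zic promoter had a median GC content of 46.6% (range 37.1% to 54.5%) and 15.3 CG per kb (3.81 to 47.1), against 51.3% and 32.8 per kb over all anchors. The set of all anchors keeps those at promoters, while the 27 leave out the Zic promoters, so nothing is read from this contrast. The 3 distal anchors on chromosome 9 had 6.71 to 12.3 CG per kb.

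**Figure D5:**
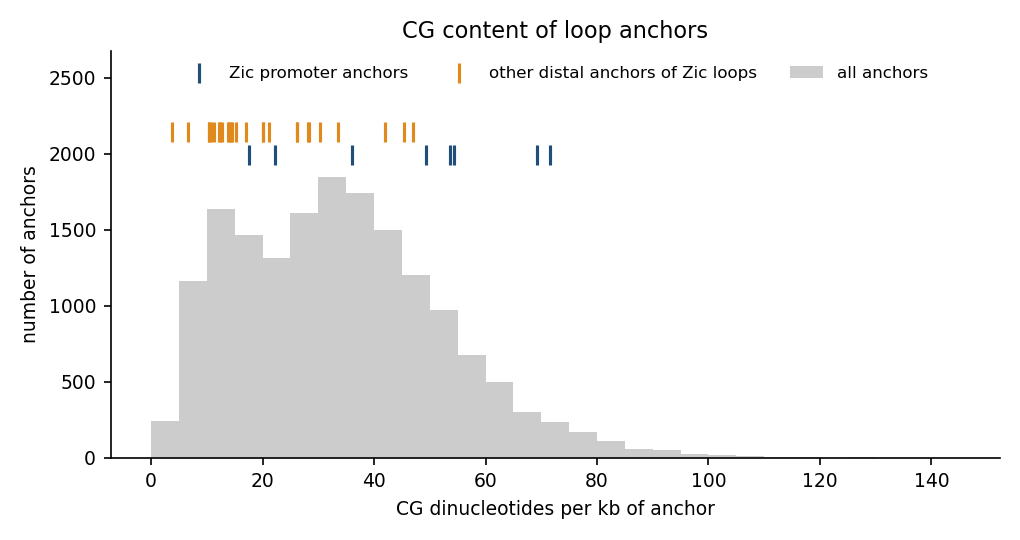
Number of anchors by CG dinucleotides per kb for all 16864 anchors (gray), with the 8 anchors at Zic promoters (blue) and the 27 other anchors of their loops (orange) as ticks at arbitrary height. The promoter ticks run from 17.6 to 71.6 per kb and the others from 3.81 to 47.1.

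In the RefSeq promoter windows of 300 bases on GRCm38.p6, found for 3 of the 4 members, Zic1 had 31 CG dinucleotides, Zic5 15 and Zic4 8, with a median of 7 over 32851 windows. None of the 3 held GATC, on either strand since the motif is palindromic, beside 48.0% of all windows.

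The limit of 2 kb left a few anchors on either side. The anchor closest to the limit for Zic5, 1.50 kb from the Zic5 start, just inside, gave 6 loops with 11 tags. Just outside for Zic2 lay the downstream region itself, whose anchor in the second part had 11 loops with 45 tags in all. It lay 3.22 kb from the nearest TSS of the 2 Zic2 transcripts, and farther from the gene start given above. For Zic1 the nearest anchor outside was at 3.39 kb, with 1 loop of 1 tag.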

How the data were processed

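H3K27ac HiChIP was made from 2 hSS2 SyS tumors, grouped as H3K27ac HiChIP by their labels. According to the methods, the authors used HiC-Pro to map the reads to mm10 and hichipper at an FDR under 0.05 to call loops, which they then merged. The deposited list gives, per loop, a pair of anchors and a whole-number count of paired-end tags, not normalized. It also gives the FDR, a p-value adjusted by the authors' caller. A figure legend of the study names Mango and a stricter FDR, and the rule for merging is not given in the sources used here. Both parts of the list were used together, with 119 of the 172 tags of Zic2 in the first, and 41574 tags over 24244 loops is its depth. The members and gene lists were chosen with earlier results of these data known.

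TSSs were the first bases of the transcripts of GENCODE vM21 on GRCm38, grouped by gene identifier, for 55450 genes. Spans are distances between anchor midpoints. Counts above 0 have exact Poisson 95% intervals, shares Wilson intervals and the median span an interval from order statistics. A count of 0 was given a set bound of 3 tags in place of an exact interval. This bound does not cover tags of contacts that were not called as loops. No test was made, as the list has 1 value per loop. Named genes were the 4 members, genes with a TSS at the distal anchor of a member loop of at least 4 tags, the 5 genes next above and below Zic2 in loop score, and genes of 2 lists chosen for textbook roles, with values from 20 tags on. Gli1, Gli2 and Gli3, the genes at 0, Pcca and 1700108J01Rik were named after their values were seen. As alternatives, windows of 1 and 5 kb around TSSs were tried, as were RefSeq TSSs, an FDR under 0.01, at least 2 tags, each part of the list alone (tag sums scaled to the total of the whole list), no loops under 20 kb and repeated loops counted once. The assignment was checked on planted loops. Tables were made with pandas 2.3.3 and numpy 2.4.6 in Python 3.11.15, intervals with scipy 1.17.1, sequences with pysam 0.24.0 and plots with matplotlib 3.10.9. The other assays of the study are not analysed here, and 1 gene of the rule and its list is not reported here.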

Additional observations from a re-analysis of the deposited data

How the results depend on the processing

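The 224 tags at Zic promoters became 168 with an FDR under 0.01 and 99 without loops under 20 kb. The first part of the list alone held 134 of them and the second 90, or 194.4 and 289.7 when scaled to the depth of the whole list, a scaling chosen after seeing the data. The loop score of Zic2, 172 tags, became 137 with an FDR under 0.01, 63 without loops under 20 kb and 215 with a promoter window of 5 kb, which takes in the region downstream of the gene. It stayed within its counting interval in either part when scaled. The share of distal anchors near another TSS, 56.2%, became 75% with an FDR under 0.01, 81.2% with at least 2 tags and 77.8% in the first part. The median span, 216 kb, became 58.3, 70.2 and 48.1 kb under those settings, which leave out single-tag loops or the second part. Under the other settings of the 9 tried, these values stayed within their counting intervals. Zic5 fell from 85 tags to 64 with an FDR under 0.01 and to 32 without loops under 20 kb. Zic1 and Zic4 had 0 with an FDR under 0.01, with at least 2 tags and in the first part, so their loops rest on single tags of the second part. Of the 230 entries that repeat a loop, 0 were at a Zic promoter. No paired analysis was possible because the list has no column for either tumor, and neither tumor could be left out. The depth of a median of 1 tag per loop limits every statement about a single weak loop.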
